A study of Capsicum annuum with 12 samples.

Results

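The 2 H3K9me2 libraries of this study are described here by the peaks that were called in each of them, in young pepper leaf (Capsicum annuum cv. 59). They were chosen by their sample titles and are 2 of the 6 immunoprecipitated libraries of the series, which also holds 2 libraries each of H3K4me3 and H3K27me3 and lists 6 inputs. The antibody was ab1220, and ground leaf was fixed with 1% formaldehyde for 10 min in all groups. All groups share the cultivar, the tissue and the fixation, no treatment or genotype differs between them, and the labels give neither an age nor a count of plants. On the 12 chromosomes, replicate 1 had 18430 peaks and replicate 2 had 14342, out of 171476 peaks in the 6 lists. Intervals of at least 100 bp that are covered by peaks of both replicates are called shared regions, and there were 4026 of them.

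H3K9me2, the dimethylation of lysine 9 of histone H3, is set in plants by SUVH histone methyltransferases such as KRYPTONITE, known from Arabidopsis. These enzymes bind methylated DNA, and in turn the chromomethylase CMT3 binds H3K9me2 and methylates cytosines outside CG sites, so that both marks uphold each other over silent transposons and other repeats. In plants with large genomes, such as pepper, repeats fill most of the chromosomes between the gene-rich ends. Reads from near-identical repeats cannot always be placed on a single copy, and the sources used here do not say how such reads were treated.

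A peak is a stretch in which the authors' caller found more fragments than the local background, and the summit is its highest point. The numbers of fragments over the summit and of the local background were recovered from the deposited fold and p-value of each peak. A background above 5 times the lowest of the library is called high here. Whether the 2 replicates are separate plants cannot be read from the labels, so the difference between them may be technical. A leaf holds many kinds of cells, and fewer cells with the mark and less of it per cell cannot be told apart in these values. No genome or annotation of the files' build was used, so neither genes nor repeats were assigned to peaks.

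The peaks of this mark were short and few fragments deep. Their median width was 295 bp in replicate 1 and 298 bp in replicate 2, and the quartiles were 246 and 386 bp in replicate 1 and 249 and 386 bp in replicate 2. The shortest had 213 and 215 bp, and peaks of at most 300 bp made up 52.0% and 51.02% of the lists. Many lay close to the shortest, with a 5th percentile of 218 and 220 bp. Width is set in part by the caller's minimum, so it does not measure how far the mark itself extends. Only 198 and 156 peaks reached 1 kb, which is 1.07% and 1.09%, and the longest had 2548 and 3057 bp. In both libraries the narrowest classes of 50 bp held the most peaks, and no second group of wide peaks was seen. All peaks together covered 6.42 Mb and 5.03 Mb, or 0.210% and 0.164% of the chromosome span of 3066 Mb.

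The median fold over background was 4.31 and 4.38. From the 5th to the 95th percentile it ran from 3.07 to 6.22 in replicate 1 and from 3.02 to 6.22 in replicate 2. The median peak rested on 15 fragments in both libraries. Wider peaks had more fragments, with a Spearman correlation over peaks of 0.374 and 0.366, but about the same fold, with a Spearman correlation of 0.0472 and 0.0134. These are descriptions over 18430 and 14342 peaks of 1 library each, which are not independent.

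Wide peaks recurred between the replicates more often than narrow ones. A peak was taken as found again if the other list had a peak overlapping it over 50% or more of the shorter one. Of the peaks under 250 bp, 10.4% of replicate 1 (95% Wilson interval 9.56 to 11.2%) and 14.4% of replicate 2 (13.3 to 15.5%) were found again. Of those of at least 1 kb it was 72.2% (65.6 to 77.99%) and 74.4% (66.98 to 80.6%). All intervals cover counting error only. The widest peaks also had more fragments, with a median of 23 and 22 against 13 and 13. A high background was recorded for 28.8% and 26.9% of them against 3.63% and 4.74% of the narrowest. A wide peak also offers more length to overlap with, since the 50% is counted over the shorter peak. The parts of this, of depth and of background in the rise were not tested.

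Neighbouring summits lay at 2 scales of distance. The median distance from a summit to the next was 76.4 kb in replicate 1 and 94.5 kb in replicate 2, below the means of 166 kb and 214 kb. On a log scale the most frequent class ran from 178 to 316 kb and held 14.05% and 13.8% of the distances. Such classes widen with distance, so the place of this maximum also depends on the number of peaks over the span. It is not read as a preferred distance. A separate maximum stood between 1 and 1.78 kb with 7.42% and 7.22%. A smaller maximum stood from 3.16 to 5.62 kb with 6.59% and 6.66%, against 5.92% and 6.02% in the class before it. Above it, the class from 5.62 to 10.0 kb held 3.93% and 3.55%. Distances from 1 to 10 kb made up 23.9% and 23.4%, and those from 100 kb to 1 Mb 43.7% and 45.9%. Both libraries thus gave the same shape, although replicate 2 had fewer peaks and longer distances in the upper part. A neighbour within 10 kb was present for 42.5% and 41.1% of the peaks, and the closest summits were 308 and 258 bp apart.

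**Figure D1:**
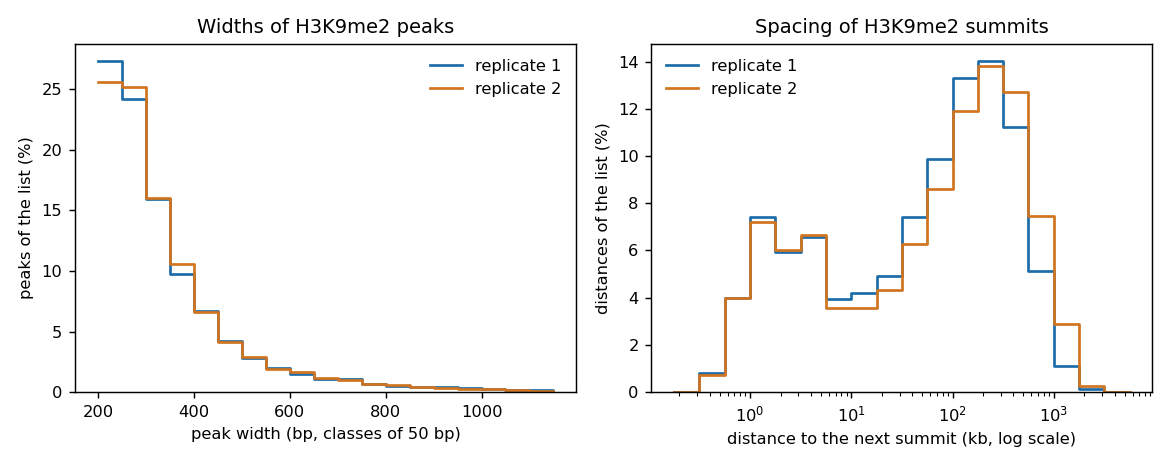
The left panel gives the share of H3K9me2 peaks in width classes of 50 bp up to 1.2 kb, and the right panel the share of distances between neighbouring summits in 4 classes per power of 10 on a log axis. Lines are the 2 replicates. Widths are most frequent below 300 bp and thin out above. The distances have maxima at 1 to 1.78 kb and at 178 to 316 kb in both, and a smaller one at 3.16 to 5.62 kb.

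Within 5 kb, the distances between any 2 summits of a library were not evenly spread. There were 6524 such pairs in replicate 1 and 5108 in replicate 2, counted in classes of 50 bp. Raised stretches, or ridges, were seen at 3 distances in both libraries, with limits set after the counts were seen, and each is compared with the classes up to 500 bp before and after it. From 1200 to 1550 bp there were on average 109 and 81.7 pairs per class, against 91.9 and 69.2 before and 68.7 and 59.2 after. From 3350 to 3550 bp it was 91 and 67, against 59.4 and 46.5 before and 60.1 and 48.8 after. From 4650 to 4900 bp it was 81.4 and 64.4, against 58.2 and 45.9 before and 59 and 40.5 in the last 2 classes up to 5 kb. Another stretch that was counted, from 1900 to 2250 bp, had 71.3 and 58.6 pairs per class and did not exceed the 79.8 and 62.7 before it.

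A stricter description asked which classes were among the 5 highest of both libraries relative to the classes within 500 bp. Only the class from 3400 bp met it, with 1.47 and 1.36 times the median of its surroundings. On chromosomes 1 and 2 alone it was the class from 4750 bp, with 2.11 and 1.87 times. Among peaks of high background the classes from 3350 bp (2.36 and 2.08) and from 4850 bp (2.13 and 2.17) met it. No class met it on chromosomes 3 to 12 or among peaks of low background. From 3350 to 3550 bp, chromosomes 3 to 12 still had on average 49.5 and 40.5 pairs per class. The classes before had 39.7 and 32.6, and those after had 38.7 and 32.8. What sets these distances was not tested.

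The ridges were tall among high-background peaks and low or missing among the others. High-background peaks gave 30.8 and 23.3 pairs per class from 3350 to 3550 bp, against 10.5 and 8.50 before and 15.3 and 12.2 after. Low-background peaks gave 47.8 and 35.5 there, against 41.3 and 34.2 before and 37.3 and 32.3 after. From 1200 to 1550 bp low-background peaks were not raised, with 61.9 and 46.3 against 62 and 47.5 before. High-background peaks had 32.1 and 23.3 there against 19.1 and 15.1. From 4650 to 4900 bp the low-background peaks had 42.8 and 32.2 against 39.2 and 31 before, and the high-background peaks 26.2 and 22.8 against 12.5 and 10.3.

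The distances of the first and the last ridge occurred together in some places. Of the 407 and 322 pairs that were 4650 to 4900 bp apart, 31.4% and 28.3% had a further peak between them at 1200 to 1550 bp from one end. For pairs 4400 to 4650 bp apart the share was 25% and 20.1%, and for pairs 4900 to 5150 bp apart it was 22.5% and 25.1%. Of the runs of 3 peaks at 4650 to 4900 bp, 86 of 128 and 60 of 91 lay on chromosomes 1 and 2. Of all pairs at this distance 155 of 407 and 138 of 322 lay there, and of all peaks 3568 of 18430 and 2804 of 14342. For runs at 4400 to 4650 bp it was 31 of 72 and 20 of 43, and at 4900 to 5150 bp 37 of 69 and 22 of 59. A run of replicate 1 overlapped one of replicate 2 in 31 of 128 cases, and the reverse held for 32 of 91. The 128 and 91 runs lay on 11 chromosomes in each library.

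**Figure D2:**
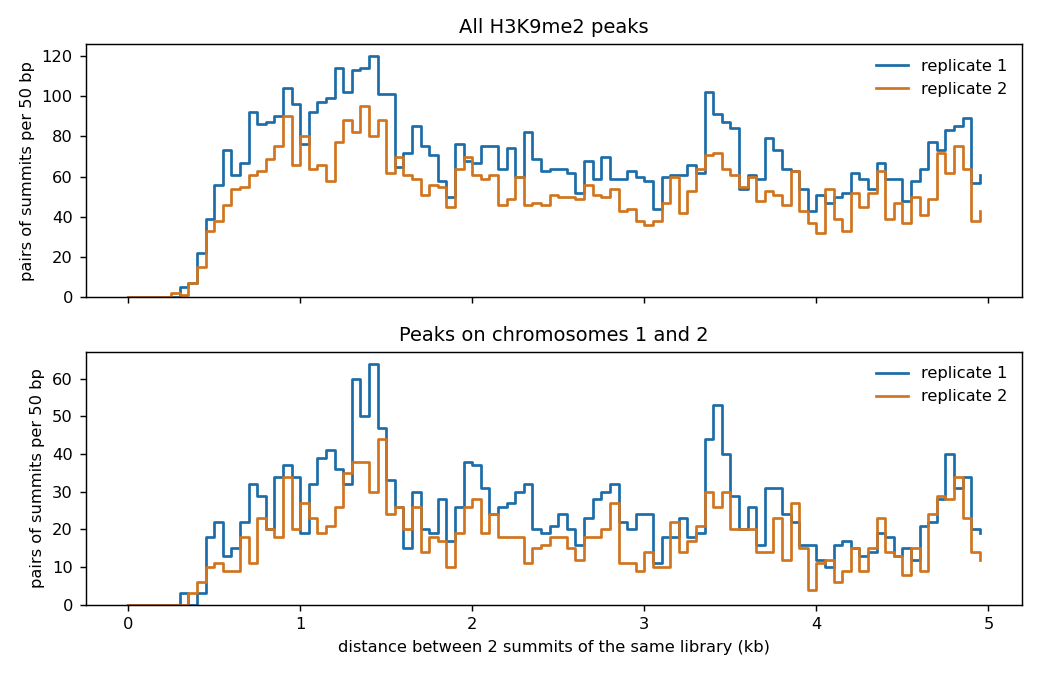
Number of pairs of summits of the same library by their distance, in classes of 50 bp up to 5 kb, for all H3K9me2 peaks (top) and those on chromosomes 1 and 2 (bottom). Lines are the 2 replicates. Raised stretches stand near 1.2 to 1.55, 3.35 to 3.55 and 4.65 to 4.9 kb in both replicates, and they are steeper on chromosomes 1 and 2.

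Close peaks formed chains, which are runs of peaks with gaps of at most 10 kb, a limit set after the spacing was seen. Peaks with no such neighbour were the most frequent kind, with 57.3% of the peaks of replicate 1 and 58.6% of replicate 2. Chains of at least 10 peaks were few, with 52 in replicate 1 (839 peaks) and 58 in replicate 2 (909 peaks), and their median span was 34.7 and 34.0 kb. Within them the median peak was 389 and 388 bp wide, against 277 and 279 bp for lone peaks. Its fold was 4.06 and 4.12, against 4.48 and 4.51.

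Peaks in long chains were found again more often than lone peaks. Of the lone peaks 11.4% and 16.2% were found again, of those in chains of at least 10 peaks 46.0% and 45.8%. The rise was also present within broad classes of depth. At up to 14 fragments over the summit the share was 5.10% and 7.95% for lone peaks and 28.4% and 26.6% in the long chains. No peak of so few fragments had a high background in either list, so low background was no separate condition there. At 15 to 29 fragments and low background it was 19.5% and 26.4% against 42.6% and 40.8%. A dense chain also offers more peaks to overlap with, and the part of that in the rise was not tested.

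**Figure D3:**
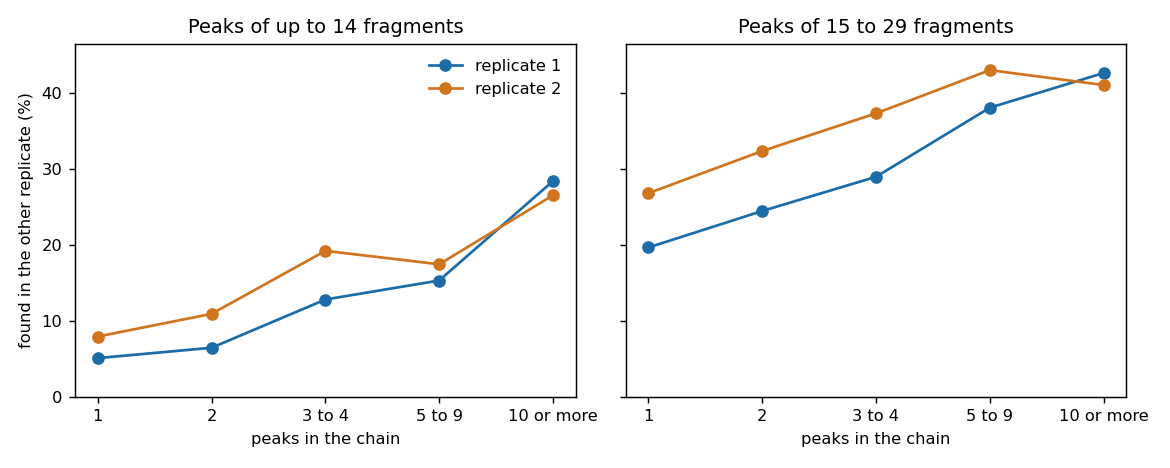
Share of H3K9me2 peaks found again in the other replicate (vertical axis, percent) by the number of peaks in their chain, for peaks of up to 14 fragments (left) and of 15 to 29 fragments (right). Points are the 2 replicates. The share is lowest for lone peaks in both panels, at 5.10% and 7.95% on the left, and reaches 28.4% and 26.6% there in chains of 10 or more.

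The chains themselves recurred. Of the chains of at least 10 peaks, 38 of 52 in replicate 1 (73.1%, Wilson interval 59.7 to 83.2%) were overlapped by such a chain of replicate 2. In the other direction it was 38 of 58 (65.5%, 52.7 to 76.4%). Each of them held at least 1 base of a peak of the other library. For chains of at least 3 peaks the shares were 49.9% of 1068 and 67.1% of 788.

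The largest chain lay on chromosome 3, from 41983611 to 42110573 with 54 peaks in replicate 1 and from 41983080 to 42113347 with 50 peaks in replicate 2. Peaks covered 19.4% and 18.1% of it. Its median fold was 4.02 and 4.08, with a high background for 0 and 1 of its peaks. No H3K4me3 peak lay in it in either library, and 1 and 0 H3K27me3 peaks did. Of its H3K9me2 peaks 20 and 19 were found again, so the extent was alike while most single peaks were not.

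The next chain lay on chromosome 1 from 247654253 to 247786128, with 47 peaks in replicate 1. In replicate 2 the same stretch was broken into 3 chains, the largest with 26 peaks from 247696187 to 247768218. None of these peaks had a high background. Chromosome 10 held 3 of the 10 largest chains, at 2750300 to 2826622, at 248279319 to 248329034 and at 7093906 to 7132815 in replicate 1. They had 24, 24 and 19 peaks there and 27, 26 and 15 in replicate 2.

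Another 3 of the large chains differed from these in that all of their peaks had a high background. On chromosome 8, replicate 1 had 43 peaks from 10190641 to 10291239 and replicate 2 had 35, with chain ends that differed by 8 and 9 bp. On chromosome 7 it was 34 peaks from 22349206 to 22450431 and 32 in replicate 2, with ends 32 and 41 bp apart. On chromosome 2 it was 24 peaks from 621910 to 692702 and 26 in replicate 2, with ends 14 and 10 bp apart. The caller's median background was 20.3 and 24.8 fragments on chromosome 8, 25.2 and 28.9 on chromosome 7, and 24.1 and 27.7 on chromosome 2. In the chromosome 3 chain it was 3.43 and 3.29.

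In the 3 high-background chains the H3K27me3 libraries differed from each other. Replicate 1 of H3K27me3 had 28, 43 and 33 peaks in the chains of chromosomes 8, 7 and 2, and replicate 2 had 3, 4 and 1. The H3K4me3 libraries had 0 peaks there in replicate 1 and 2, 7 and 4 in replicate 2. The number of peaks in these stretches thus differed more between the 2 libraries of H3K27me3 than between those of H3K9me2.

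Most single H3K9me2 peaks had no counterpart. No peak of the other library shared a base with 14235 peaks of replicate 1 (77.2%) and 10146 of replicate 2 (70.7%). Their median distance to the nearest peak of the other library was 52.6 and 34.4 kb. A peak of the other library lay within 1 kb of 30.8% and 38.3% of all peaks, within 10 kb of 45.8% and 53.9%, and within 100 kb of 72.0% and 80.6%. The second value of each pair is the higher one, and it was counted against the longer list. Peaks without a partner had a median of 14 fragments in both libraries against 20 for the others. A high background was recorded for 3.70% and 3.31% of them against 27.3% and 27.6%.

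Over larger stretches the replicates rose and fell together. In 3074 bins of 1 Mb, replicate 1 had on average 5.995 peaks per bin and replicate 2 had 4.67. The Spearman correlation between them was 0.569 and Pearson's r 0.880. Among low-background peaks the Spearman correlation was 0.490, and without chromosomes 1 and 2 it was 0.527. Within single chromosomes the Spearman correlation of all peaks ran from 0.462 on chromosome 10 to 0.732 on chromosome 1. The next highest was 0.719 on chromosome 2. The Spearman correlation rose with the bin, from 0.313 at 10 kb (306566 bins) over 0.357 at 100 kb to 0.722 at 5 Mb (619 bins) and 0.807 at 10 Mb (313 bins). Larger bins hold more peaks, so their counts are also more precise. The bins share the genome, the mappability and the repeats of 1 cultivar, and correlations over them are given with no p.

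Peaks without a partner agreed in the same way, at a lower level. At 1 Mb their Spearman correlation was 0.340 and their r 0.665, and at 10 Mb 0.630 and 0.807. With low background as a further condition the values at 1 Mb were 0.330 and 0.662. Peaks with no peak of the other library within 10 kb, 9985 and 6613 in number, gave a Spearman correlation of −0.0258 at 10 kb, 0.0841 at 1 Mb, 0.323 at 5 Mb and 0.480 at 10 Mb. The condition itself keeps such peaks of the 2 libraries apart at short range and removes them where both are dense. No scale of agreement is read from these values for that reason.

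**Figure D4:**
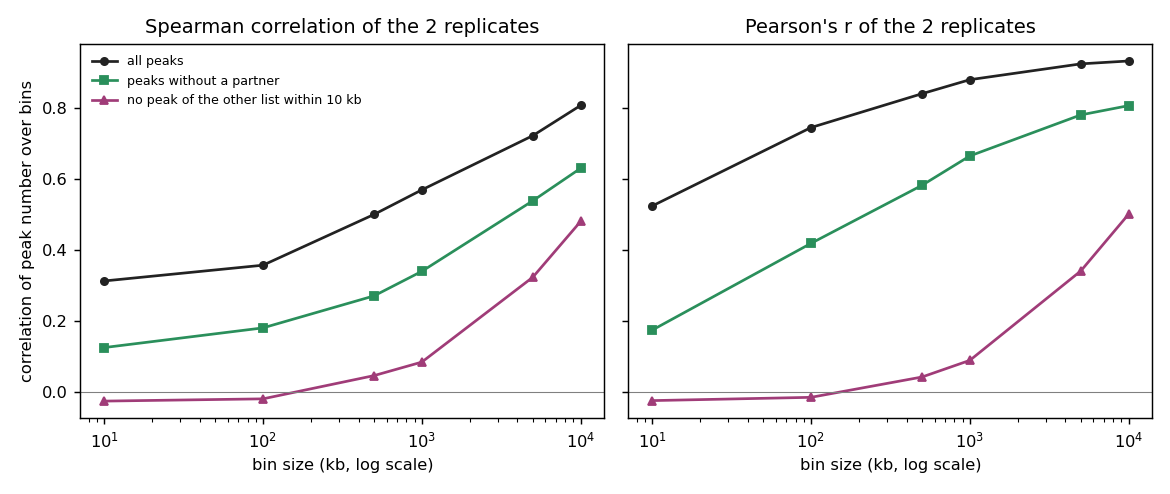
The Spearman correlation (left) and Pearson's r (right) between the peak numbers of the 2 H3K9me2 replicates by bin size (kb, log axis), for all peaks, for peaks that share no base with the other list, and for peaks with no peak of the other list within 10 kb. All 3 lines rise with the bin. At 1 Mb the Spearman correlation is 0.569, 0.340 and 0.0841.

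A small set of bins carried much of r. Without the 20 fullest bins of 1 Mb, an alternative chosen after the data were seen, r fell from 0.880 to 0.749, while the Spearman correlation was 0.561. For peaks without a partner r was then 0.496 and the Spearman correlation 0.327. The fullest 1% of bins, 31 in each library, held 8.14% and 9.95% of the peaks, and 26 of the 31 were the same in both. Of the fullest 5% it was 111 of 154, and of the fullest 10% it was 197 of 307. No peak lay in 2.57% and 5.82% of the bins.

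The 5 fullest bins lay near chromosome ends. The first was on chromosome 5 from 14000001 to 15000000, with 112 and 109 peaks, of which 54 and 50 had no partner. Next came chromosome 4 from 240000001 to 241000000 with 93 and 112 peaks, and chromosome 5 from 13000001 to 14000000 with 89 and 81. The fourth, on chromosome 4 from 239000001 to 240000000, had 69 and 70. In these bins at most 2 peaks per library had a high background. The fifth, on chromosome 7 from 22000001 to 23000000, had 67 and 61 peaks, 64 and 60 of them with a high background, and it holds the chain of chromosome 7 given above. Of the 20 fullest bins, 19 lay in the outer 15% at either end of their chromosome. They came from 10 chromosomes and held 6.11% and 7.64% of the peaks.

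Stretches with no peak of either library were short. The longest lay on chromosome 3 from 285689084 to 288163805, which is 2.47 Mb, near the end of the chromosome. It was rich in the other marks, with 101 and 106 H3K4me3 peaks and 407 and 371 H3K27me3 peaks. The next, on chromosome 3 from 963707 to 3009345 (2.05 Mb), held 143 and 143 H3K4me3 peaks and 70 and 60 of H3K27me3. The third, on chromosome 5 from 52496040 to 54231361 (1.74 Mb), was poor in all marks, with 5 peaks in each of the 4 other libraries. Gaps of over 1 Mb numbered 75.

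Along the chromosomes, peaks occurred everywhere and piled up at certain ends. With each chromosome cut into 10 segments of equal length, the densest segment was the same in both replicates on 12 of 12 chromosomes, and on 9 of them it was a segment at an end. Over the 120 segments the Spearman correlation between replicates was 0.878 and r 0.957. The highest was the last segment of chromosome 4, with 16.3 and 16.6 peaks per Mb, followed by the first segment of chromosome 5 with 15.6 and 13.6. On chromosome 8 the first segment had 12.1 and 10.5 peaks per Mb and the ninth had 2.36 and 2.01. The other end was often not raised, as on chromosome 4, where the first segment had 4.79 and 3.75 peaks per Mb. Chromosome 10 was raised at both ends, with 10.7 and 9.90 in the first segment and 8.97 and 8.33 in the last. Chromosomes 1, 3 and 11 had their densest segment inside.

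**Figure D5:**
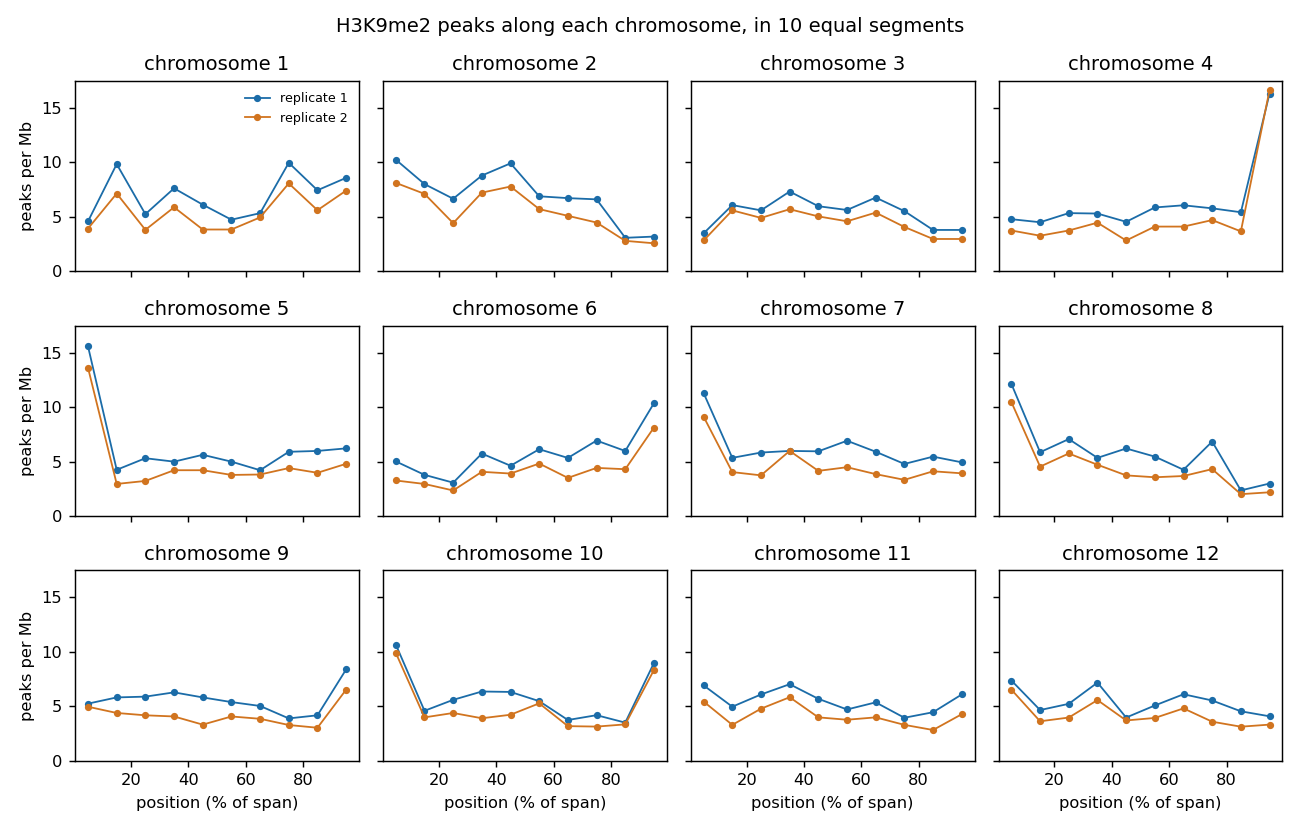
H3K9me2 peaks per Mb in 10 segments of equal length of each of the 12 chromosomes, with position in percent of the span. Points and lines are the 2 replicates. The curves run in parallel, the densest segment is the same in both on 12 of 12 chromosomes, and the last segment of chromosome 4 stands highest with 16.3 and 16.6 peaks per Mb.

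Averaged over chromosomes, the first segment had 8.11 ± 3.78 (SD, 12 chromosomes) and 6.83 ± 3.405 peaks per Mb and the last 6.99 ± 3.83 and 5.92 ± 4.01. The 8 segments between had means of 4.68 to 6.50 in replicate 1 and 3.48 to 5.13 in replicate 2. The SD over chromosomes of these inner segments was 0.738 to 1.73 and 0.665 to 1.48, below that of the end segments. The outer 15% at both ends together held 33.9% and 35.7% of the peaks in 30% of the span. Long chains were more uneven than single peaks. Chains of at least 10 peaks held 12.1% and 16.3% of the peaks of the outer parts, 1.66% and 1.88% between 15 and 30%, and 0 in the inner 40%.

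Whole chromosomes differed little in peaks per Mb, which ran from 5.37 on chromosome 12 to 7.012 on chromosome 2 in replicate 1, and from 4.15 on chromosome 11 to 5.53 on chromosome 2 in replicate 2. Replicate 1 had more peaks on 12 of 12 chromosomes, by 1.196 to 1.37 times. The densest by mean density, the share of peaks over the share of span, were chromosomes 2 (1.17) and 1 (1.16), and the least dense were chromosomes 12 (0.898) and 11 (0.903).

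The high density of chromosomes 1 and 2 went with local background. High-background peaks made up 33.2% and 37.2% of the peaks on chromosome 1 and 31.4% and 34.9% on chromosome 2, against 1.70 to 7.74% and 1.71 to 9.01% on the others. Of all high-background peaks, 69.5% and 68.3% lay on these 2 chromosomes. Without them chromosome 1 had 4.64 and 3.42 peaks per Mb and chromosome 2 had 4.81 and 3.601. Both were then below each of the other 10 chromosomes in both libraries, where chromosome 4 had the most with 6.25 and 5.02. The cause of the high background there was not tested.

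The 4026 shared regions covered 1.27 Mb, with a median of 271 bp, and 18 of them reached 1 kb. Summits of the 2 replicates lay a median of 75 bp apart in them, and 60.5% were within 100 bp. Fragments over the summit correlated between replicates with a Spearman correlation of 0.805, and the local background with 0.780. For fold the Spearman correlation was 0.255 and r 0.320. The correlation of fold depended on which peaks entered, being 0.563 for peaks with a −log10 q of 5 or more. A high background in either library was recorded for 1335 regions (33.2%), and 1197 regions (29.7%) lay on chromosomes 1 and 2. In the 2691 regions of low background in both libraries, the Spearman correlation was 0.477 for fragments, 0.406 for the background and 0.0413 for fold. Their folds also span a narrow range, from 3.52 to 5.98 between the 5th and 95th percentile.

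A few shared regions stood far above the rest in fold. The highest mean fold was on chromosome 8 from 111318196 to 111318913, with 14.2 and 15.2 and with 84 and 116 fragments. Chromosome 6 from 98532082 to 98532548 had 13.3 and 13.3, with 63 fragments in both. Chromosome 5 from 132558240 to 132558868 had 13.4 and 13.1. The remaining regions of the first 5 differed between replicates, with 17.3 and 9.03 on chromosome 5 from 152147755 to 152148298 and 14.9 and 9.66 on chromosome 4 from 241473682 to 241474123. The first 3 were inside their chromosomes, at 39.2 to 64.0% of the span.

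The 5 longest shared regions all had a high background in at least 1 library. They were 2504 bp on chromosome 9 from 51127958 to 51130461 (fold 5.75 and 4.44), 1994 bp on chromosome 11 from 6085463 to 6087456 (5.12 and 6.15) and 1866 bp on chromosome 10 from 51088537 to 51090402 (5.70 and 4.22). The others were 1464 bp on chromosome 2 from 54505792 to 54507255 (3.06 and 6.23) and 1157 bp on chromosome 2 from 68678204 to 68679360 (5.69 and 2.92).

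The smallest q in both libraries belonged to regions of many fragments. By the lower of their −log10 q values, the first was chromosome 4 from 249869022 to 249869309, with 308 and 329 fragments and a fold of 4.44 and 4.04. Chromosome 1 from 321337631 to 321338340 followed with a fold of 8.30 and 9.69, and chromosome 1 from 180542147 to 180542606 with 10.1 and 14.03. The region of chromosome 8 with the highest fold was the fourth. The fifth, on chromosome 7 from 22062228 to 22062487, had 1002 and 1086 fragments over a background of 491 and 599.2, which gives a fold of 2.04 and 1.81.

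H3K9me2 peaks lay farther apart than those of the other 2 marks, H3K4me3, known from gene starts, and H3K27me3, known from Polycomb-silenced genes, and less often near chromosome ends. The median spacing of 76.4 and 94.5 kb compares with 19.5 and 20.3 kb for H3K4me3 and 2.80 and 3.03 kb for H3K27me3. The mean of the H3K9me2 libraries was 74.1 kb above that of the other 4. Among peaks with a −log10 q of 5 or more this difference was 220.5 kb, from a mean of the H3K9me2 medians of 233 kb. The mean of the other 4 was 12.6 kb there and 11.4 kb over all peaks. The H3K9me2 lists were also shorter, with 18430 and 14342 peaks against 34467 and 33855 of H3K4me3 and 37284 and 33098 of H3K27me3. Mean spacing was 166 and 214 kb against 82.2 to 92.6 kb. Fewer peaks on the same span lie farther apart, and a limit on q removes peaks. The part of list length in these differences was not tested. The outer 15% at both ends held 62.0% and 61.9% of H3K4me3 peaks and 66.8% and 66.6% of H3K27me3 peaks, and H3K9me2 was 29.5 points below their mean. The coefficient of variation of the peak number over 1 Mb bins was 1.02 and 1.23, against 1.34 to 1.52 in the other libraries, a difference of −0.303. For each of these 3 measures both H3K9me2 libraries lay outside the range of the other 4, and the exact two-sided permutation test gave p = 0.0667. That is the smallest p that 2 against 4 libraries can give, and it is 0.0889 after Benjamini-Hochberg adjustment over 4 measures, so no difference could pass the threshold of 0.05.

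The share of peaks with a neighbour within 1 kb lay between those of the other marks. It was 9.16% and 9.01% for H3K9me2, between the 7.46% and 6.02% of H3K4me3 and the 28.7% and 27.04% of H3K27me3. The difference of −8.21 points gave an exact permutation p of 0.467, also 0.467 after adjustment. The lower variation over bins did not hold under every setting. By covered bases in place of peak number the difference was −0.0633 (exact permutation p = 0.467), with the H3K9me2 mean of 1.45 inside the range of the other libraries, 1.41 to 1.62. In bins of 0.5 Mb it was −0.205 (exact permutation p = 0.267), and without replicate 1 it was −0.197. Among peaks with a −log10 q of 5 or more the order turned, with an H3K9me2 mean of 1.47 against 1.44, a difference of 0.0334 (exact permutation p = 0.467).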

How the data were processed

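Each library has a peak list of its own, called against an input per the names of the deposited lists. MACS2 2.2.7.1, deepTools 3.3.0, BWA 0.7.17 and Trimmomatic 0.38 are named in the submitters' processing notes. The sources used here give neither their roles and settings nor the build or the reads per library. Each deposited list holds the authors' fold enrichment (a linear ratio over local background) and the −log10 of p and q, the lowest −log10 q being 2.01 and 2.02 in the H3K9me2 lists. Titles gave groups and replicate numbers.

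Fragments (n) and background were recovered by reading fold as (n + 1) over (background + 1) and p as a Poisson chance, and n came within 0.01 of a whole number for 100% of peaks. Positions count from 1. As chromosome length, the end of the last peak in any list was used. The 4 measures compared with the other marks, 1 value per library, were tested by exact permutation over 15 arrangements. The regions, bins, gaps and chromosomes named are the first few by fold, length, q, peak number, gap length and density. Alternatives were limits on q, fold and background, leaving out chromosomes 1 and 2, joining peaks within 1 kb, other bins, other overlaps, covered bases, either replicate left out and the replicate number as a block. The members, measures and rules were chosen with earlier results of these data known. Functions were tested on simulated data. Python 3.11.15, numpy 2.4.6, scipy 1.17.1, pandas 2.3.3 and matplotlib 3.10.9 were used.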

Additional observations from a re-analysis of the deposited data

Results flagged for a closer look

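Peaks outside the 12 chromosomes entered no comparison. The H3K9me2 lists held 788 such peaks in replicate 1 and 767 in replicate 2, on 8 and 9 scaffolds, which is 4.10% and 5.08% of the lists. In the H3K4me3 libraries their number was 61 and 113, and in those of H3K27me3 893 and 218. A high background was recorded for 95.7% and 96.6% of the H3K9me2 scaffold peaks, with a median of 79 and 80 fragments over the summit. Their cause was not tested.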

How the results depend on the processing

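For the 4 measures compared with the other marks, no setting could pass the threshold, so only direction and size say anything. Their direction turned once. Of the values without a test, 15 moved by more than the spread, which was that between replicates, or between chromosomes for correlations. At a −log10 q of at least 5, the variation over bins turned to 0.0334, the spacing difference was 220.5 kb, the median width was 332 bp, the Spearman correlation at 1 Mb was 0.432 for all peaks and 0.230 for peaks without a partner, and the Spearman correlation of fold was 0.563. The variation was −0.0633 by covered bases, −0.205 in bins of 0.5 Mb and −0.589 in bins of 5 Mb. Close neighbours within 5 kb differed by −22.3 points from the mean of the other libraries. The share was 35.5% and 34.8% for H3K9me2, near the 36.3% and 34.2% of H3K4me3. For H3K27me3 it was 80.2% and 79.0%. A minimum fold of 3 gave a Spearman correlation of fold of 0.143. With low background only, width was 290 bp, the mean share found again 17.3% and the Spearman correlation of fold 0.0413. Width was 293 bp without chromosomes 1 and 2 and 299.5 bp with peaks joined within 1 kb. The share found within 1 kb was 34.6%. The Spearman correlation was 0.722 at 5 Mb, and for peaks without a partner 0.271 at 0.5 Mb, 0.538 at 5 Mb and 0.0841 with no other peak within 10 kb. Joining peaks within 1 kb can give no share of neighbours within 1 kb. Leaving out either replicate gave differences of 65.3 to 82.9 kb in spacing, −8.91 to −7.52 points in close neighbours, −30.5 to −28.5 points in the distal share and −0.410 to −0.197 in variation, and a width of 295 to 298 bp. Measures that compare both replicates then have no value. With the replicate block the differences were 74.1 kb, −8.21 points, −29.5 points and −0.303, with permutation p-values of 0.111, 0.556, 0.111 and 0.111, of which 0.111 is the smallest that 9 arrangements give. Replicates of different marks with the same number correlated at −0.0789 to 0.00671 in their deviations over bins. The value of −0.0789 is that of H3K4me3 with H3K27me3. The values with H3K9me2, −0.0194 and 0.00671, rest on few H3K9me2 peaks per bin. With a single value per pair of marks they cannot tell whether the numbers pair the samples, and the labels do not say. Depth limits the description of single peaks, since the median peak rests on 15 fragments.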
